A study of Homo sapiens with 3 samples.

Results

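The genes of 8 ETS family transcription factors (ETS1, ETS2, ETV4, ETV5, ELF1, GABPA, EHF and ERF) and of ZMYND11 were examined for regions bound by ETS2 and by ZMYND11 in DU145 cells, an established line grown from a brain metastasis of a prostate adenocarcinoma. Chromatin immunoprecipitation followed by sequencing had been done once for each of 3 conditions: ETS2 in DU145 cells with ETS1 knocked out, ZMYND11 (also named BS69) in DU145 cells with ETS1 knocked out, and ZMYND11 in wild-type, here called parental, DU145 cells. All 3 share the cell line, and the sources used here do not say whether the knockout line is 1 clone. Each condition has 1 library, without a replicate or an input library analysed here, so no value below has a replicate error and no test between conditions was possible. The members are all listed regions that overlap by at least 1 bp an hg19 locus of one of the 9 genes extended by 10 kb on each side, 0.705 Mb in all. They number 15 of 17232 listed regions: 2 of 1020 ETS2 regions and 13 of 15676 ZMYND11 regions in knockout cells, and 0 of 536 ZMYND11 regions in parental cells.

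ETS factors share a DNA-binding domain that recognises a GGAA core. ETS1 and ETS2 are close relatives that are phosphorylated downstream of Ras by ERK, which raises their activity. ZMYND11 is a chromatin reader that binds a methylated histone variant in the bodies of transcribed genes, and its MYND domain also docks onto other regulators, so that it acts as a co-repressor. By its title, the study concerns opposing roles that ETS1 and ETS2 have through ZMYND11. The comparisons here ask whether the genes that encode these proteins were themselves among the places where ETS2 and ZMYND11 were found.

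One promoter is shown because both an ETS2 and a ZMYND11 region of knockout cells lay at that gene's start, and a second because it belongs to the gene whose start faces the pair of regions beyond the 3′ end of ERF. Both are from RefSeq on GRCh38.p14 and run from 250 bases before to 50 bases after the annotated start, 5′ to 3′ on the gene's own strand, which is plus for GABPA (chr21:25734722-25735021) and minus for GSK3A (chr19:42242553-42242852). Capitals mark GGAA on either strand, extended to CCGGAAG where that longer ETS site was found.
GABPA: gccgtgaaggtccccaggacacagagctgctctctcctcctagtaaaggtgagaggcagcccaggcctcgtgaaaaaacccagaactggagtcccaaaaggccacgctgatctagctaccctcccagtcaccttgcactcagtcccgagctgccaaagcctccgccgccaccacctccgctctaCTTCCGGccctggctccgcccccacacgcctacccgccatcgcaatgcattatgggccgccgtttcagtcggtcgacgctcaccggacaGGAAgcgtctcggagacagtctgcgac
GSK3A: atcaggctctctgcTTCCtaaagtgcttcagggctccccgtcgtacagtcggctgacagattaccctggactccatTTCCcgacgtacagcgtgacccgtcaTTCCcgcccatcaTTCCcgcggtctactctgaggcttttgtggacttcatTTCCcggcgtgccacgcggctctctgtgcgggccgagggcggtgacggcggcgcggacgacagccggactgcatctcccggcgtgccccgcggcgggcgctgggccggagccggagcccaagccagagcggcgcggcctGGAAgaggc

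The GABPA promoter held 1 CCGGAAG, on the strand opposite to the gene and beginning 66 bases before the start, and 2 GGAA cores in all, 1 of them within that site. The GSK3A promoter held 6 GGAA cores and 0 CCGGAAG. Searched on both strands, CCGGAAG was present in 10.3% of all 35116 RefSeq promoters of this length and GGAA in 95.5%, so a core alone sets no promoter apart. Promoters were found in the table for 6 of the 9 genes, as 19 windows, since some genes have several starts. CCGGAAG occurred in 1 of the 19, that of GABPA. The AP-1 site TGANTCA occurred in 0 of the 19, beside 7.71% of all promoters. The 19 windows come from only 6 genes and are too few to compare with the shares of all promoters. These are matches of letters on another build than the listed regions, and their overlap with a listed region was not computed.

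ZMYND11 regions of ETS1-knockout cells were found at 7 of the 9 loci: ZMYND11, ETS1, ETS2, ETV5, ELF1, GABPA and ERF. ETS2 regions were found at 2, GABPA and ERF, and each of these met a ZMYND11 region. Parental ZMYND11 regions were found at 0. The overlapping pair at ERF lay in the flank past the 3′ end and is not assigned to that gene. Without flanks, ETS2 regions were found at 1 locus, GABPA, and knockout ZMYND11 regions at 4. Shares of windows as wide as the loci without flanks were not computed. To read the counts with flanks, the genome was cut into windows as wide as each locus with its flanks. Across the 9 widths the share of windows holding a region was 0.822 to 3.66% for ETS2 and 8.41 to 24.4% for ZMYND11 in knockout cells, and 0.489 to 2.53% for ZMYND11 in parental cells. The mean of the 9 shares was 2.06%, 16.0% and 1.36% in the same order, beside 22.2%, 77.8% and 0.0% of the loci. The windows include gene-poor sequence and gaps, which lowers their shares, and windows limited to genes were not used here.

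**Figure D1:**
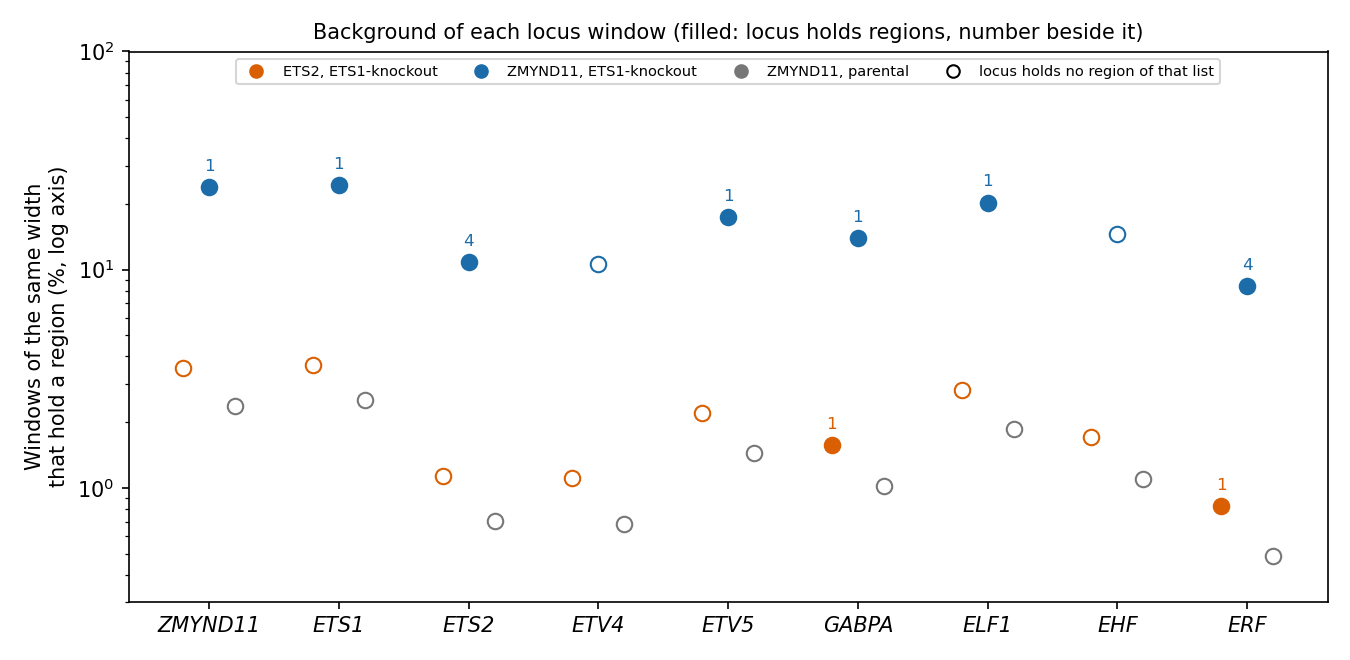
For each locus, the percentage of windows as wide as the locus with its flanks that held a region (log axis), for ETS2 and ZMYND11 in ETS1-knockout cells and ZMYND11 in parental cells. Filled points are loci that held regions, with their number. ETS2 points are filled at 2 of 9 loci, knockout ZMYND11 points at 7 and parental points at 0.

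Counted by density, the loci held 2.84 ETS2 regions per Mb, against 0.347 per Mb over the 2940 Mb that the lists span. For ZMYND11 in knockout cells the densities were 18.4 per Mb at the loci and 5.34 per Mb over the span. The pooled value for ZMYND11 rests largely on ERF (145 per Mb) and ETS2 (101 per Mb), with 4 of the 13 regions each. At the other loci the knockout ZMYND11 density ran from 0.0 to 17.4 per Mb. At the mean density of the parental list, 0.129 regions would fall in the 0.705 Mb, so its 0 regions do not set the loci apart from the rest of that list. The knockout ZMYND11 list is also the longest. When it was taken only to its first 536 regions, the length of the parental list, it placed 2 regions at 2 loci, GABPA and ERF, against 0 in the parental list. The share of windows holding any of these first 536 was not computed. The order of the lists is not explained, so equal length does not make the 2 lists comparable. The depth and threshold behind each list are not known, and their part in the difference was not tested.

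**Figure D2:**
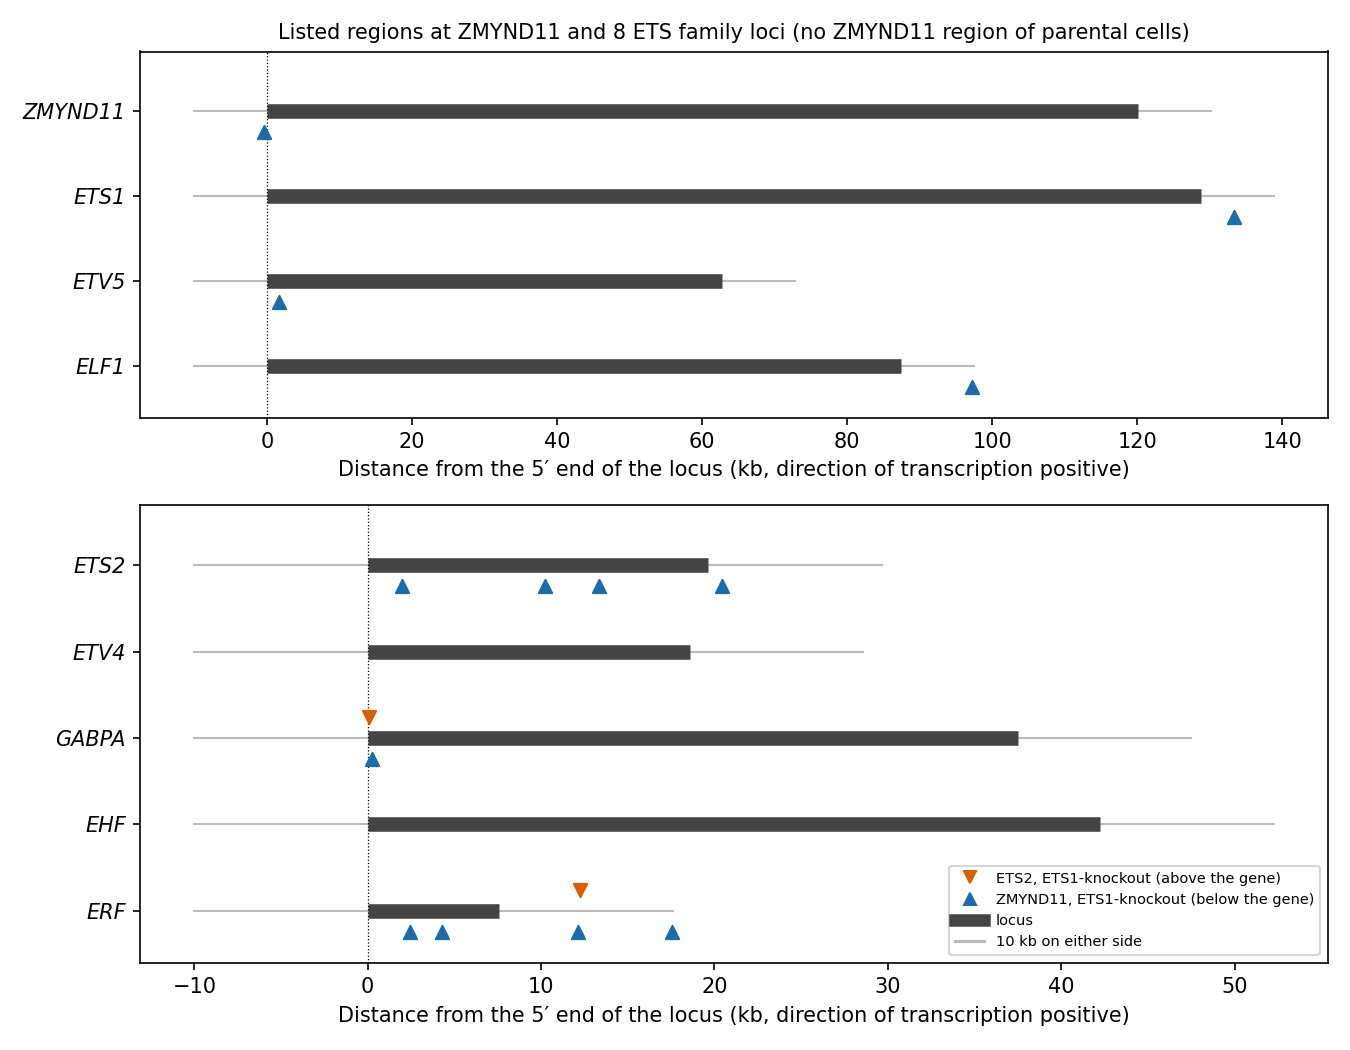
Midpoints of the listed regions by distance from the 5′ end of each locus (kb), long loci above and short loci below. Bars are loci and thin lines the 10 kb on either side, with ETS2 regions above the bars and knockout ZMYND11 regions below. ETS2 and ERF carry 4 ZMYND11 regions each, and at GABPA and ERF an ETS2 region stands over a ZMYND11 region.

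ZMYND11 itself (chr10:180405-300577, plus strand) held 1 region, of ZMYND11 in knockout cells, just before the 5′ end of the locus. It spanned 179732 to 180218 on chromosome 10, that is 673 to 187 bp upstream of the start, and stood at place 7061 of 15676, or 45.0% of the way down the list. The order of the lists is not explained in the sources used here, so a place is given only as a position. No region of any list lay inside the 120173 bp of the gene. Windows as wide as this one held an ETS2 region in 3.53% and a ZMYND11 region in 23.9% of cases in knockout cells, and a parental ZMYND11 region in 2.38%. The nearest ETS2 midpoint was 887 kb from the start in knockout cells, and the nearest parental ZMYND11 midpoint 353 kb. The RefSeq model of ZMYND11 on GRCh38 is 4377 bp longer than the locus used, and where its several starts lie relative to the locus was not analysed here.

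ETS1, the gene knocked out in 2 of the 3 libraries (chr11:128328656-128457453, minus strand), held no region of any list within its 128798 bp. The lists carry no read counts and therefore do not check the knockout. The single region in its window was of ZMYND11 in knockout cells (128323804 to 128324301 on chromosome 11, place 13044, 83.2% down the list). It lay 4355 to 4852 bp past the 3′ end of ETS1. Windows of this width, the widest of the 9, held an ETS2 region in 3.66% and a ZMYND11 region in 24.4% of cases in knockout cells, and a parental ZMYND11 region in 2.53%. On chromosome 11 alone the shares were 5.56% for ETS2, 26.6% for knockout ZMYND11 and 2.33% for parental ZMYND11. The nearest ETS2 midpoint to the ETS1 start was 2680 kb away in knockout cells and the nearest parental ZMYND11 midpoint 7920 kb.

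ETS2 (chr21:40177231-40196878, plus strand), the factor that was itself precipitated, held 4 ZMYND11 regions of knockout cells. Of these, 3 lay inside the gene. The one nearest the start spanned 40178942 to 40179414 on chromosome 21, 1711 to 2183 bp downstream of the 5′ end (place 9358, 59.7%). The next spanned 40187227 to 40187727, with its midpoint at 52.1% of the gene's length (place 13373, 85.3%). The third spanned 40190308 to 40190794, at 67.8% of the length (place 14001, 89.3%). All 3 regions inside ETS2 thus stood past the first 50% of the list. The fourth spanned 40197401 to 40197898, 523 to 1020 bp past the 3′ end, and stood earlier, at place 3629 (23.2%). Of windows as wide as the ETS2 window, 1.13% held an ETS2 region and 10.8% a knockout ZMYND11 region, and 0.702% a parental ZMYND11 region. At least 4 knockout ZMYND11 regions were held by 1.44% of them. Limited to chromosome 21, the share with at least 4 was 1.66%. No ETS2 region lay at the ETS2 gene: the nearest midpoint was 378 kb from its start in knockout cells. For parental ZMYND11 the nearest was 2290 kb away.

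The PEA3 group members ETV4 and ETV5, ETS factors that also act downstream of receptor tyrosine kinases and Ras, differed from each other in the knockout ZMYND11 list. ETV5 (chr3:185764108-185826901, minus strand) held 1 region, 185825037 to 185825523 on chromosome 3. It lay 1378 to 1864 bp downstream of the 5′ end, at 2.58% of the gene's length, and stood at place 14213 (90.7%), the latest place of the 13. Windows as wide as this one held an ETS2 region in 2.21% and a ZMYND11 region in 17.4% of cases in knockout cells, and a parental ZMYND11 region in 1.44%. On chromosome 3 alone the shares were 0.937% for ETS2, 14.7% for knockout ZMYND11 and 1.06% for parental ZMYND11. ETV4 (chr17:41605211-41623800, minus strand) held 0 regions of any list. Windows of its width held an ETS2 region in 1.11% and a ZMYND11 region in 10.6% of cases in knockout cells, and a parental ZMYND11 region in 0.684%. On chromosome 17 alone the shares were 3.68% for ETS2, 26.4% for knockout ZMYND11 and 1.34% for parental ZMYND11. The knockout ZMYND11 region nearest to the ETV4 start had its midpoint 62.4 kb away in the direction of transcription, beyond the 3′ end (41561135 to 41561620 on chromosome 17, place 3105). The difference between the 2 genes is 1 region and was not tested. The nearest ETS2 midpoints were 178 kb from the ETV4 start and 198 kb from the ETV5 start in knockout cells, and the nearest parental ZMYND11 midpoints 469 and 4380 kb.

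GABPA, the DNA-binding subunit of a factor that serves many housekeeping and mitochondrial genes (chr21:27107258-27144771, plus strand), was the one locus with regions of both proteins at its start. The ETS2 region of knockout cells spanned 27107092 to 27107588 on chromosome 21, from 166 bp upstream to 330 bp downstream of the 5′ end, at place 563 of 1020 (55.2%). The ZMYND11 region of knockout cells spanned 27107268 to 27107746, 10 to 488 bp downstream, at place 435 of 15676 (2.77%). They overlapped by 321 bp, with midpoints 167.0 bp apart. Windows as wide as this one held an ETS2 region in 1.57% and a ZMYND11 region in 13.9% of cases in knockout cells, and a parental ZMYND11 region in 1.02%. The nearest parental ZMYND11 midpoint was 5800 kb from the start. In the RefSeq table the gene on the upstream side is ATP5PF, a subunit of the mitochondrial ATP synthase, which is read in the opposite direction, so a region at this start cannot be given to GABPA alone. The RefSeq model of GABPA is 25 bp shorter than the locus used, and the CCGGAAG of the promoter printed above begins 66 bases before the RefSeq start. The ETS2 region reaches 166 bp before the 5′ end of the locus, and the ZMYND11 region begins after it. The site and the regions are on different builds, and whether either region covers the site was not computed.

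ELF1, a broadly expressed ETS factor best known from blood cells (chr13:41506055-41593508, minus strand), held 1 knockout ZMYND11 region at the very edge of its window. The region spanned 41496078 to 41496568 on chromosome 13, 9487 to 9977 bp past the 3′ end (place 8919, 56.9%). Windows of this width held an ETS2 region in 2.81% and a ZMYND11 region in 20.3% of cases in knockout cells, and a parental ZMYND11 region in 1.86%. On chromosome 13 alone the shares were 0.907% for ETS2, 10.8% for knockout ZMYND11 and 1.13% for parental ZMYND11. The region nearest to the 5′ end of the locus lay outside the window, with its midpoint 42.0 kb upstream (41635224 to 41635719, place 2224). The RefSeq model of ELF1 on GRCh38 is 42014 bp longer than the locus used. Whether the added length begins at that region was not analysed here, as the builds differ. The neighbour in the RefSeq table on that side is WBP4, which is read in the opposite direction. The nearest ETS2 midpoint in knockout cells was 244 kb from the locus start, and the nearest parental ZMYND11 midpoint 4910 kb.

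EHF, an ETS factor of epithelial cells (chr11:34642588-34684834, plus strand), held 0 regions of any list. Windows of its width held an ETS2 region in 1.71% and a knockout ZMYND11 region in 14.5% of cases, and a parental ZMYND11 region in 1.1%. On chromosome 11 alone the shares were 2.74% for ETS2, 16% for knockout ZMYND11 and 0.976% for parental ZMYND11. Of the 9 starts, that of EHF lay farthest from a knockout ZMYND11 region. The nearest midpoint was 516 kb away for ETS2 and 296 kb for ZMYND11 in knockout cells, and 21000.0 kb for parental ZMYND11.

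ERF, a repressor of the ETS family that ERK moves out of the nucleus (chr19:42751717-42759316, minus strand), is the shortest locus, 7600 bp, and held 5 of the 15 regions. Of its 4 knockout ZMYND11 regions, 2 lay inside the gene. One spanned 42756651 to 42757150 on chromosome 19, 2166 to 2665 bp downstream of the 5′ end (place 7753, 49.5%), and the other 42754794 to 42755287, 4029 to 4522 bp downstream (place 7992, 51.0%). No ETS2 region met either.

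Past the 3′ end of ERF stood the earliest-listed member of each knockout list. The ETS2 region of knockout cells spanned 42746812 to 42747311 on chromosome 19, at place 14 of 1020 (1.37%), and the ZMYND11 region of knockout cells 42746924 to 42747419, at place 96 of 15676 (0.612%). They overlapped by 388 bp, with midpoints 110.0 bp apart, and lay 4406 to 4905 bp (ETS2) and 4298 to 4793 bp (ZMYND11) past the gene's end. In the RefSeq table the next gene on this side is GSK3A, a kinase of glycogen metabolism and Wnt signalling, read in the same direction as ERF, so that its start faces the 3′ end of ERF. The pair of regions lies outside ERF and is not assigned to it. The fourth ZMYND11 region, 42741508 to 42742008 (place 11498, 73.3%), crossed the outer edge of the window by part of its length, with 292 bp inside it. Just outside the window, a further ZMYND11 region began 10634 bp upstream of the 5′ end (42769950 to 42770431, place 15372), and it is not counted.

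Windows as wide as the ERF window held an ETS2 region in 0.822% of cases over all chromosomes and in 4.79% on chromosome 19. A parental ZMYND11 region was held by 0.489% over all chromosomes and by 1.46% on chromosome 19. For knockout ZMYND11 the shares were 8.41% and 30.7%, and at least 4 regions were held by 0.776% of windows over all chromosomes and by 4.27% on chromosome 19. With 50 kb on each side in place of 10 kb, the 9 loci gained 12 knockout ZMYND11 regions, of which 10 were at ERF. Shares for windows of this wider width were not computed, over all chromosomes or on chromosome 19, so this count has no background beside it. ERF was also the locus nearest to a parental ZMYND11 region, whose midpoint was 95.2 kb upstream of its start (42854305 to 42854803, place 249 of 536).

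**Figure D3:**
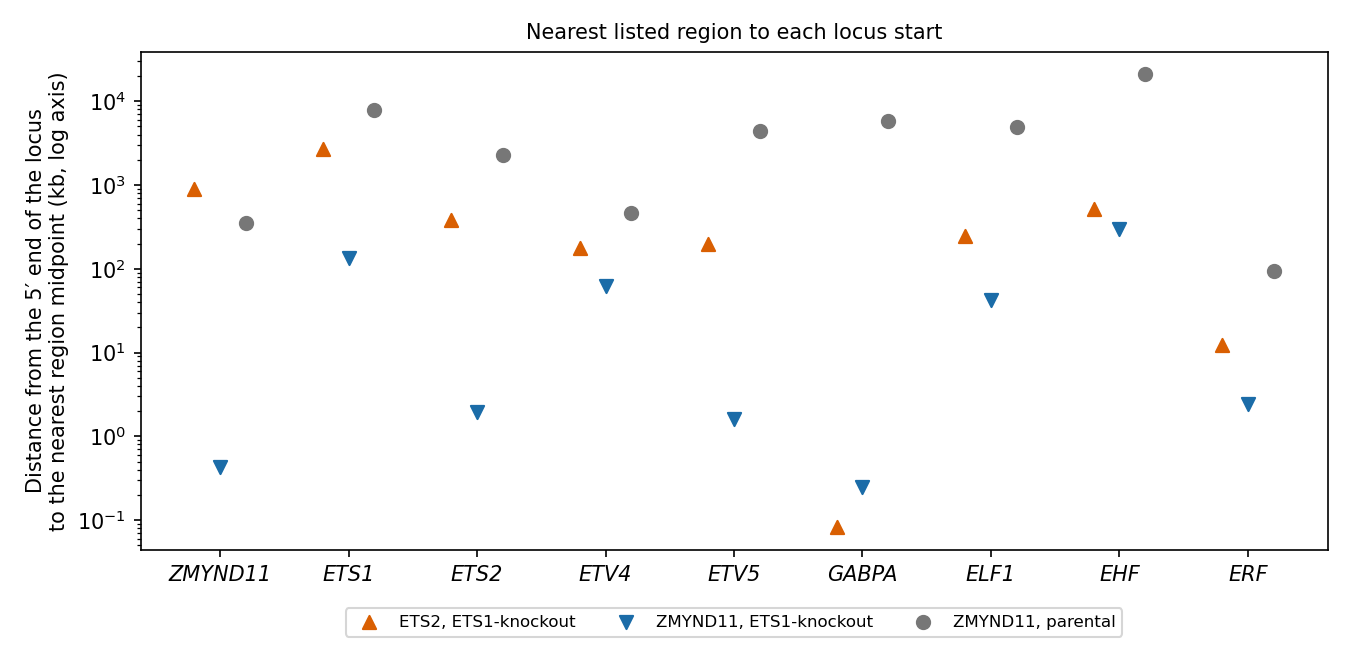
Distance in kb (log axis) from the 5′ end of each locus to the midpoint of the nearest region of each list. ETS2 midpoints lie from 0.082 kb (GABPA) to 2680 kb (ETS1) away, knockout ZMYND11 midpoints from 0.249 kb (GABPA) to 296 kb (EHF), and parental ZMYND11 midpoints from 95.2 kb (ERF) to 21000.0 kb (EHF).

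By position, 7 of the 13 knockout ZMYND11 regions lay inside a gene, 5 past a 3′ end and 1 upstream of a 5′ end. The genes make up most of the sequence examined. Their density of knockout ZMYND11 regions was 13.3 per Mb without the flanks and 18.4 per Mb with them. Over the span of the lists it was 5.34 per Mb. The flanks can hold parts of other genes, and the share of the whole list lying inside genes was not computed. A preference for gene bodies was therefore not tested. Midpoints within 1 kb of a 5′ end were found at GABPA for ETS2, and at ZMYND11 and GABPA for knockout ZMYND11. ETV5, ETS2 and ERF had a knockout ZMYND11 midpoint 1.62, 1.95 and 2.42 kb downstream of the 5′ end. Within 5 kb there were thus 5 loci. The share of all gene starts with a midpoint this near was not computed, so whether these counts are unusual is not known. No knockout ZMYND11 region covered the 5′ end of a locus as used here, though at GABPA one began 10 bp downstream of it. Other annotated starts of these genes were not placed on this build, so whether a region covers one is not known. The widths of the 13 regions were 473 to 501 bp, and the list as a whole had a median of 497.0 bp.

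**Figure D4:**
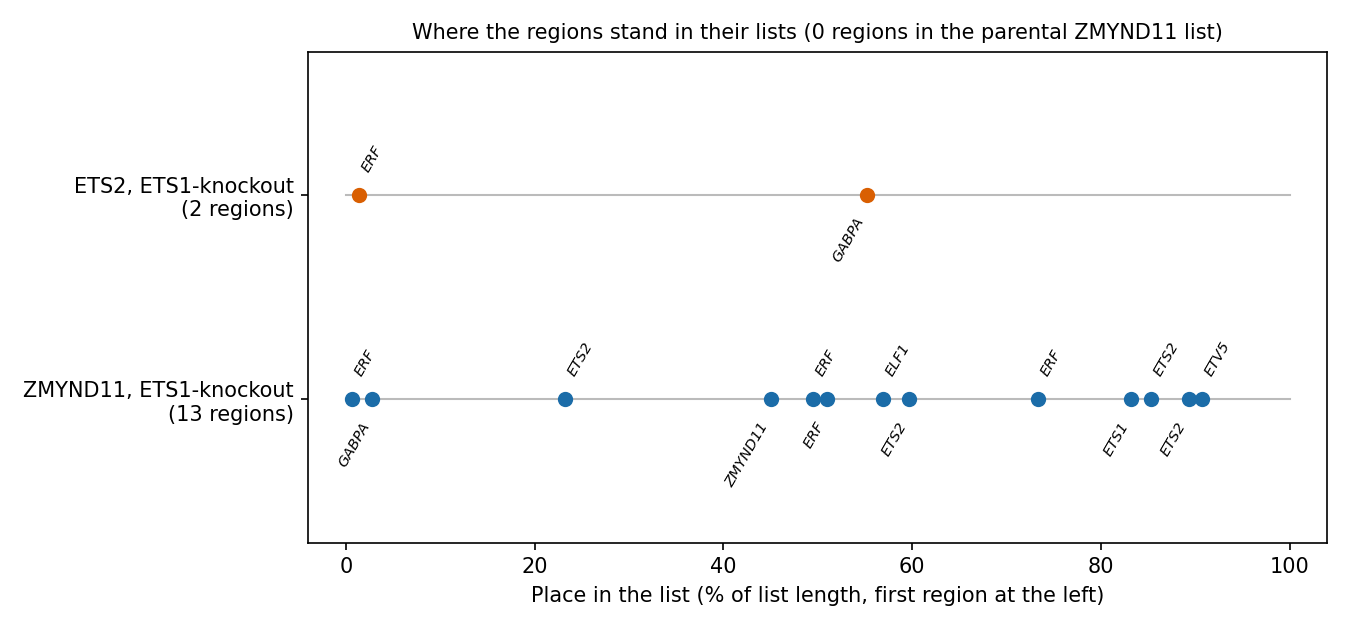
Places of the member regions as a percentage of their list's length, for ETS2 (2 regions) and ZMYND11 (13 regions) in ETS1-knockout cells. The ZMYND11 regions at ERF and GABPA that met an ETS2 region stand first, at 0.612 and 2.77%, and the other 11 lie between 23.2 and 90.7%.

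The 13 knockout ZMYND11 regions ran from place 96 to place 14213, with a median of 8919 (56.9% of the list). Of them, 5 stood in the first 50% and 8 in the rest. The 2 in the first 10% of the list, at ERF and GABPA, were those that met an ETS2 region, and 0 of the other 11 did. Over the whole list the share meeting an ETS2 region was 29.6% in the first 10% and 0.836% after it. The members are too few to compare with these shares. From the other side, 2 of 2 ETS2 regions met a knockout ZMYND11 region, beside 57.1% of all 1020 ETS2 regions. With 2 members this share is not distinguishable from that of the list.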

How the data were processed

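ChIP-seq of ETS2 and ZMYND11 in DU145 cells was analysed from 3 lists of regions, 1 for each library, grouped by sample title. The authors deposited chromosome, start and end only. The deposited values are thus positions in bp, with no score, read depth or p-value. Bowtie2 2.0.6 and hg19 were used, per the submitters' processing notes; a peak caller, threshold or control is not given in the sources used here. Whether starts count from 0 or 1 is not stated, and both ends were treated as inside the region.

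Loci were hg19 intervals given with the list of genes, extended by 10 kb. Strands came from the RefSeq promoter table, and for ETS1, ETV4 and ETV5 from general knowledge of these genes. Exons and UTRs were not analysed here. RefSeq tables, on GRCh38.p14, gave names of neighbours, gene lengths and promoter letters. No coordinate was converted. All 9 genes are named, with every region, and a neighbour only where it lies beside a region. Windows for the background were laid end to end over the span of the lists on each chromosome, and the member windows were not removed. Locus assignment was tested on simulated data. The members and lists were chosen with earlier results of these data known. Python 3.11.15, numpy 2.4.6, pandas 2.3.3, scipy 1.17.1 and matplotlib 3.10.9 were used.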

Additional observations from a re-analysis of the deposited data

How the results depend on the processing

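Lists of single libraries without depth limit every count here. Without flanks, ETS2 gave 1 region at 1 locus, and knockout ZMYND11 gave 7 regions at 4 loci. With flanks of 50 kb, knockout ZMYND11 gave 25 regions. Over the first 50% of each list, ETS2 gave 1 region at 1 locus and 0 loci with a midpoint near a gene start, 1 ETS2 region met a knockout ZMYND11 region, and knockout ZMYND11 gave 5 regions at 4 loci, or 7.09 per Mb. With every list at 536 regions, ETS2 gave 1 region at 1 locus and 0 near a gene start, and knockout ZMYND11 gave 2 regions at 2 loci, or 2.84 per Mb, and 1 locus with a midpoint near a gene start. For knockout ZMYND11, 5 loci had a midpoint within 5 kb of the 5′ end of the locus used, and 0 had a region over that end. Shorter lists and narrower windows hold fewer regions by construction. The parental list stayed at 0 under each of these settings, but only the flanks of 50 kb could have raised it. Windows on each locus's own chromosome, chosen after seeing the data, held a region in 2.67% (ETS2), 19.8% (knockout ZMYND11) and 1.45% (parental ZMYND11) of cases on average. The ETS2 density was 2.84 per Mb with 10 kb flanks, 1.4 with flanks of 50 kb and 1.42 over the first 50% of the list or at 536 regions. In all, 21 of the alternative values moved, that is by over 1.5 times for counts and shares, or out of the 95% exact binomial interval for densities, and 42 did not. With 2 ETS2 regions that interval is wide, so the lower ETS2 densities are among the 42. The 42 also include parental values of 0 that most settings could not have moved, so they do not measure stability. No paired analysis was possible because each group has 1 library and no test was run, and no replicate could be left out.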
